A study of Mus musculus with 24 samples.

Results

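Perilipins coat the lipid droplets of a cell, and a small set of lipases empties those droplets. The results given here follow 10 genes of that system in the mouse hippocampus: the perilipins Plin1, Plin2, Plin3, Plin4 and Plin5, the lipases Pnpla2, Pnpla3, Lipe and Mgll, and the lipase cofactor Abhd5. They are 10 of 23787 named genes, read by 15 of 56605 probes, with 7 probes for the 5 perilipin genes and 8 probes for the 5 lipase and cofactor genes. The set was chosen by the response of Plin4 to corticosterone in these same arrays, that is, by its log2 ratio of treated over control mice at each hour, and its other members were taken by name as paralogs and lipases. For that reason no p value of a member is given for a difference between treated and control mice or for its change between hours, which are described only.

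The arrays measured hippocampal RNA of 48 male Swiss-Webster mice aged 12 weeks, each mouse used on 1 array only. Control mice were brothers of treated mice and several litters fed each group, but the labels do not give the litter of a mouse, so the fit holds no term for it and takes the mice as separate. Treated mice drank corticosterone (100 µg/ml, dissolved with 0.45% hydroxypropyl-β-cyclodextrin) through the 12 h dark phase, and control mice drank water with the cyclodextrin alone. Brains were taken in the first, the fifth or the ninth hour of the following light phase, so the comparisons run from the end of exposure into a stretch without added steroid. Each of the 24 two-colour arrays, 8 per hour, carried 1 control mouse in Cy3 and 1 treated mouse in Cy5, and because no array swapped the dyes, a bias of one dye cannot be told apart from the treatment within an hour.

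PLIN1 shields the large droplet of the adipocyte, PLIN2 and PLIN3 coat droplets in most tissues, PLIN5 ties droplets to mitochondria in oxidative tissue, and PLIN4 sits on small new droplets, best known from fat and muscle. ATGL, the product of Pnpla2, starts the breakdown of triglyceride with the help of ABHD5, hormone-sensitive lipase (Lipe) takes the diglyceride and MGLL the monoglyceride. In brain MGLL is better known for ending endocannabinoid signals, and droplets are found mostly in glia and ependyma.

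Plin4 gave the largest response of the family. In the first hour its intensity was 161 ± 34.9 (lowest 110.2, median 167, highest 214) in control mice and 1867 ± 679.6 (lowest 914, median 1892, highest 2787) in treated mice (mean ± SD, n = 8 each). The groups did not overlap, and the lowest treated mouse lay well clear of the highest control mouse. The log2 difference was 3.47 (SE 0.19), which is 11.1-fold, and single arrays ran from 2.60 to 4.04. By the fifth hour treated mice stood at 834 ± 336 (lowest 351, median 891, highest 1335) against 133 ± 14.1 (lowest 116, median 128, highest 161) in controls. The groups were again apart, with a log2 difference of 2.53 (5.78-fold) and single arrays from 1.60 to 3.41. In the ninth hour treated mice had come down to 217 ± 67.8 (lowest 145, median 205, highest 319), while controls were at 126 ± 30.2 (lowest 88.7, median 119.5, highest 184). These groups overlapped: the difference was 0.75 on the log2 scale (1.68-fold), and treated mice were higher on 7 of 8 arrays. Plin4 thus had its largest excess just after the dark phase and the smallest in the ninth hour. In whole tissue, more cells of a type and more RNA per cell cannot be told apart.

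**Figure D1:**
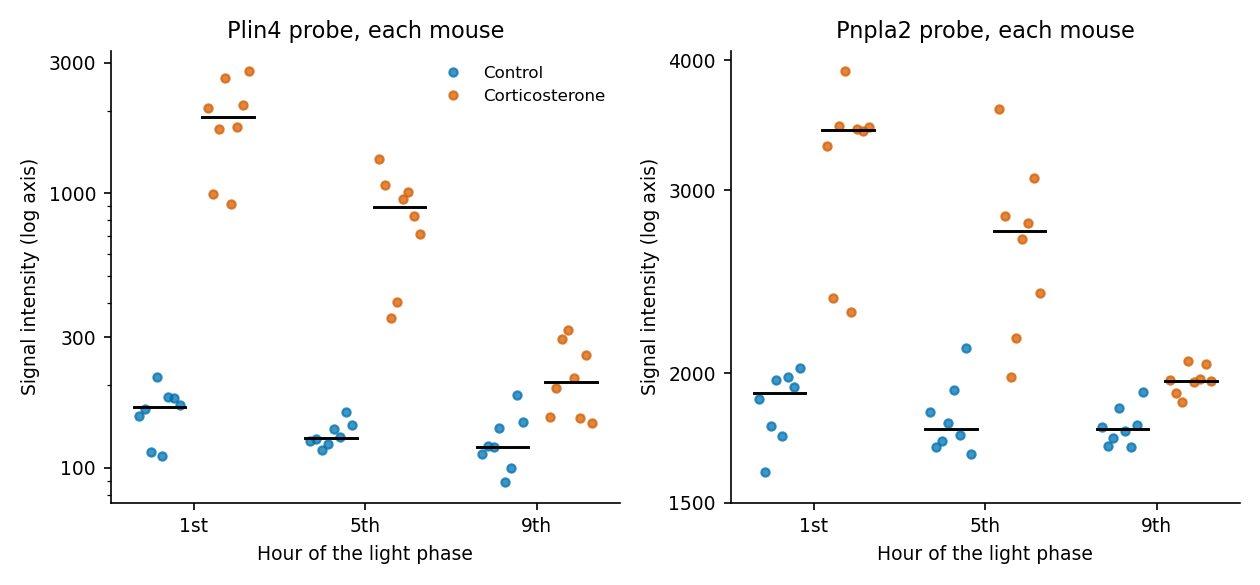
Intensity of Plin4 and Pnpla2 in each of the 48 mice by hour and treatment, on a log axis, with a bar at the median of 8 mice.

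By size of log2 ratio Plin4 held rank 1 in the first hour, rank 2 in the fifth and rank 44 in the ninth among 32033 probes with a mean intensity of 50 or more. That place was the reason for choosing the set, so it describes the gene and tests nothing. The arrays lie on 3 slides, slide 1 scanned on another day than the rest, and Plin4 was read within each. Its mean log2 ratio on slides 1, 2 and 3 was 3.16, 3.53 and 3.62 in the first hour, 3.25, 2.03 and 2.55 in the fifth, and 0.91, 0.94 and 0.23 in the ninth. Plin4 was higher with corticosterone on every slide at every hour, and the slides differed most in the fifth hour.

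Plin2, Plin3 and Plin5 had much smaller ratios than Plin4, on either side of 0. Their 5 probes had mean log2 ratios between -0.11 and 0.15 in the first hour, between -0.20 and 0.11 in the fifth, and between -0.17 and 0.14 in the ninth. In the first hour the lowest single array for Plin4 (2.60) exceeded the highest single array for any of these probes (0.58), and in the fifth hour the same held (1.60 against 0.47). In the ninth hour the ranges met, with a lowest Plin4 array of -0.021 and a highest array of 0.48 among these paralogs.

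Plin5 is the nearest relative on the chromosome, directly beside Plin4. Its 2 probes gave 0.15, 0.018 and -0.056 and -0.11, -0.20 and -0.17 over the 3 hours, with standard errors of 0.13 and 0.10. Taken array by array, Plin4 exceeded the brighter Plin5 probe by 3.32 ± 0.37, 2.51 ± 0.56 and 0.80 ± 0.44 on the log2 scale (mean ± SD, n = 8). Plin3, which like Plin4 moves between cytosol and droplet, had ratios of 0.092, -0.020 and -0.076 (SE 0.095). Plin4 exceeded Plin3 on all 8 arrays even in the ninth hour, by 0.83 ± 0.39.

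Plin2, the main perilipin of glial droplets, is read by 2 probes that disagree. Probe A_55_P1999648 stood at -0.10 in the first hour and -0.15 in the fifth on the log2 scale, and was lower on 7 and 7 of 8 arrays. Probe A_66_P132059 stood at 0.14 and 0.11 and was higher on 6 of 8 arrays at each of these hours. The direction of Plin2 therefore cannot be given, though neither probe came near the shift of Plin4. Per array, Plin4 exceeded the first Plin2 probe by 3.57 ± 0.52, 2.68 ± 0.78 and 0.71 ± 0.47. Plin1, the adipocyte perilipin, was not well above background on any control array in the first or the fifth hour, so its ratios are not read there and it is left out of the ranges given for its paralogs. In the ninth hour Plin1 was well above background on 3 of 8 control and 5 of 8 treated channels.

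**Figure D2:**
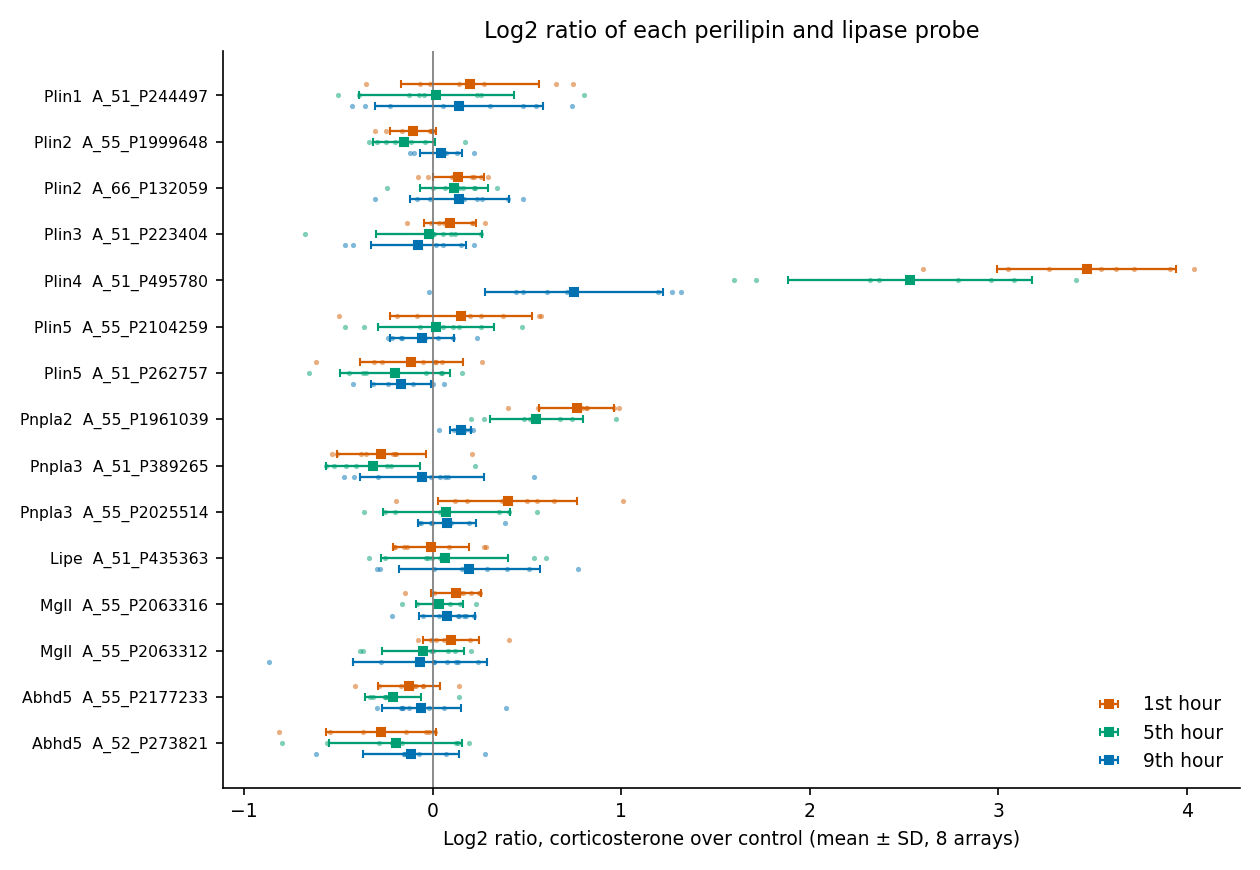
Log2 ratio of treated over control mice for each of the 15 member probes at each hour, with the 8 arrays as points and their mean ± SD. The points of Plin1 in the first and the fifth hour stand on control channels at background.

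Pnpla2 had the largest ratios among the lipases in the first and the fifth hour. Its intensity in the first hour was 1865 ± 145 (lowest 1605, median 1914, highest 2021) in control mice and 3206 ± 571 (lowest 2292, median 3430.4, highest 3909) in treated mice (n = 8 each), with no overlap. The log2 difference was 0.76 (SE 0.074), or 1.70-fold, with arrays from 0.40 to 0.99. In the fifth hour treated mice were at 2689.7 ± 516 (lowest 1982, median 2740.3, highest 3592) and controls at 1812 ± 147 (lowest 1672, median 1767, highest 2116). These groups overlapped, although treated mice were higher on all 8 arrays and the difference was 0.55 (1.46-fold). The ninth hour left 1969 ± 59 (lowest 1876, median 1966, highest 2053) against 1777 ± 75.8 (lowest 1699, median 1768, highest 1919), again overlapping, a difference of 0.15 (1.11-fold). Within slides 1, 2 and 3 the Pnpla2 ratio was 0.68, 0.78 and 0.80 in the first hour, 0.86, 0.32 and 0.58 in the fifth and 0.15, 0.18 and 0.12 in the ninth. Treated mice thus had more of the first lipase transcript of the pathway on every slide at every hour, by a smaller factor than for Plin4.

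Abhd5, whose product activates ATGL, had ratios under 0. Probe A_55_P2177233 gave -0.13, -0.21 and -0.061 on the log2 scale and was lower on 7, 7 and 6 of 8 arrays. Probe A_52_P273821 gave -0.27, -0.20 and -0.12 and was lower on 7, 5 and 6. Over all 8 arrays both Abhd5 probes thus leaned down at each hour, the opposite of Pnpla2. Within slides the direction turned in places. Probe A_55_P2177233 gave 0.22 on slide 2 in the ninth hour. Probe A_52_P273821 gave 0.014 and 0.070 on slide 3 in the fifth and the ninth. All other slide means of these probes were under 0. Pnpla3, the closest relative of Pnpla2 in the set, gave opposite answers: probe A_51_P389265 fell by 0.27 in the first hour and 0.32 in the fifth (SE 0.084), lower on 7 and 7 of 8 arrays. Probe A_55_P2025514 rose by 0.40 in the first hour (SE 0.10), higher on 7 of 8 arrays, and stood at 0.073 in the fifth. Both Pnpla3 probes are annotated to the same RefSeq transcript in the deposited files, and no direction is given for the gene.

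Lipe, the hormone-sensitive lipase, stood near the limit of detection: control channels were well above background for 6, 5 and 4 of 8 mice and treated channels for 8 of 8 at each hour. Its ratios of -0.0070, 0.065 and 0.19 thus stand in part on control channels at background. Mgll was bright and nearly level. Probe A_55_P2063316 gave 0.12, 0.036 and 0.075 (SE 0.046), and probe A_55_P2063312 gave 0.10, -0.051 and -0.069. The last lipase of the pathway thus had ratios closer to 0 than Pnpla2 in the first hour. For the record, limma at an adjusted p under 0.05 passed 5, 4 and 1 of the 15 member probes in the first, the fifth and the ninth hour, where 17.5%, 18.1% and 14% of all probes passed (9918, 10241 and 7910 of 56605). Those in the first hour were Plin4, Pnpla2, both Pnpla3 probes in opposite directions and 1 Mgll probe. Those in the fifth were Plin4, Pnpla2, 1 Pnpla3 probe and 1 Abhd5 probe, and the only one in the ninth was Plin4, which was not called there without slide 1 and was joined by Pnpla2 in a separate fit per hour. With log ratios and array as block, the Mgll probe was lost in the first hour and a Plin2 probe gained in the fifth. Because the set was picked on these contrasts, nothing is read from those counts.

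The log2 ratios of Plin4 and Pnpla2 were also compared from array to array within each hour, each array holding 1 treated and 1 control mouse. These genes were chosen as a pair after the values were seen, so the relation is a description and carries no test. In the fifth hour their log2 ratios had a Pearson r of 0.951 and a Spearman rho of 0.929 over 8 arrays, and leaving out the 2 arrays farthest from the centre left r at 0.873. In the first hour r was 0.716 and rho 0.500, and without the 2 farthest arrays r was 0.126, so that relation rests on those arrays. In the ninth hour, when little of either response was left, r was 0.268 and rho -0.0238, and without the 2 farthest arrays r was -0.505. Plin4 and Pnpla2 thus kept step in the fifth hour, when their spread was widest, and not in the ninth.

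The low end of both genes was held by the same mice in the first and the fifth hour. In the first hour the treated mice with the least Plin4 (914 and 997) also had the least Pnpla2 (2292 and 2362), and these are the arrays on which the relation of that hour rests. In the fifth hour a pair of mice, both on slide 2, had the least Plin4 (351 and 402) and the least Pnpla2 (1982 and 2162). A slide holds 2 to 4 arrays of an hour, and the tie between Plin4 and Pnpla2 was not tested within slides. In the fifth hour the ratios of both genes put the arrays in the same order within every slide. In the first and the ninth hour they did not do so on every slide.

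**Figure D3:**
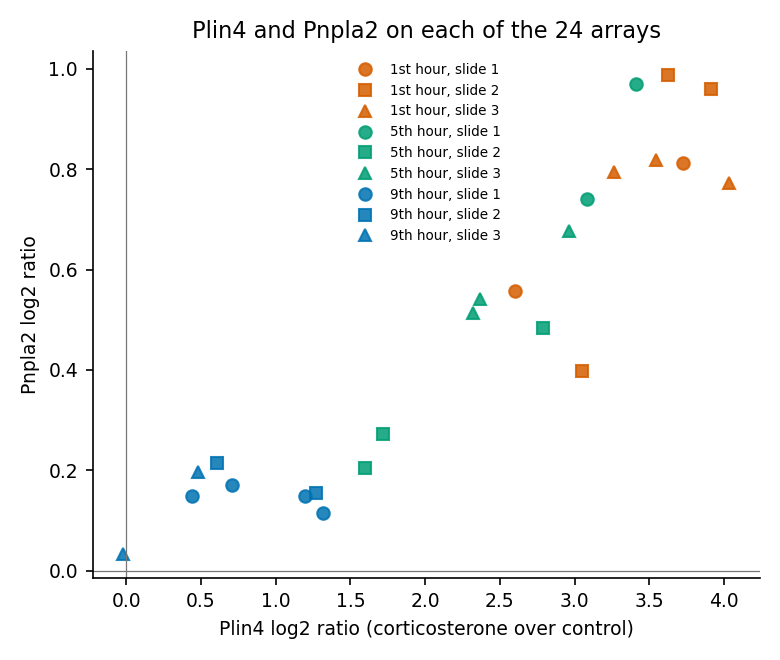
Log2 ratio of Pnpla2 against that of Plin4 on the 24 arrays, coloured by hour, with a marker for each slide.

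Genes beside Plin4 on chromosome 17 were read as well. On one side lie Hdgfl2, Ubxn6 and Chaf1a, on the other Plin5, Lrg1 and Sema6b. Lrg1, which encodes a secreted leucine-rich glycoprotein, had log2 ratios of 0.94, 0.66 and 0.13 in the 3 hours (SE 0.11), although Plin5 lies between it and Plin4. Hdgfl2, the next gene on the other side of Plin4, stood at -0.037, -0.045 and -0.088. Ubxn6 stood at -0.039, -0.071 and -0.043, Chaf1a at 0.030, 0.012 and 0.017, and Sema6b at -0.10, -0.17 and -0.15. Of this stretch Plin4 and Lrg1 had the large ratios, and Plin5, which lies between them, did not.

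The promoters of the 2 members that moved most, Plin4 and Pnpla2, and of Plin5 as the neighbour that did not, are given from RefSeq, mouse build GRCm38.p6, as 300 bases each, 250 before and 50 after the annotated start, written along the strand of the gene. Capitals mark CCAAT boxes, TATAA, and those GC boxes that read GGGCGGG, each found on either strand. Plin4 lies on the minus strand at chr17:56109733-56110032, and its promoter has 1 TATAA and 1 CCAAT box but no GC box. Plin5, also on the minus strand at chr17:56117499-56117798, has 1 TATAA, 2 CCAAT boxes and 1 GC box. The reference holds another Plin5 promoter, not shown here, that has a GC box but no TATAA and no CCAAT box. Pnpla2 lies on the plus strand at chr7:141454938-141455237 and has 2 GC boxes and neither of the other motifs. Some members have more than 1 promoter in the reference. Among the 13 promoters of members, TATAA occurs only in that of Plin4 and the Plin5 promoter shown, against 24.9% of 32851 promoters in the reference. GC boxes occur in 8 of 13, more than 1 of them from Plin5, against 25.6%. A full glucocorticoid response element (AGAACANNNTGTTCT) is in 0 of the 13 and in 3 of all promoters (0.00913%). A missing match says only that these letters are not in this window of 300 bases.
Plin4: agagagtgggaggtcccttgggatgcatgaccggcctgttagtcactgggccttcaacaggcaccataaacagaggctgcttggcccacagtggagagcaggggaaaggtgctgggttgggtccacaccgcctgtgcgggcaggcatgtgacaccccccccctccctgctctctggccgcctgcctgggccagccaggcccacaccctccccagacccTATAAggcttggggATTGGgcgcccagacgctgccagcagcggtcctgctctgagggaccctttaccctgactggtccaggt
Plin5: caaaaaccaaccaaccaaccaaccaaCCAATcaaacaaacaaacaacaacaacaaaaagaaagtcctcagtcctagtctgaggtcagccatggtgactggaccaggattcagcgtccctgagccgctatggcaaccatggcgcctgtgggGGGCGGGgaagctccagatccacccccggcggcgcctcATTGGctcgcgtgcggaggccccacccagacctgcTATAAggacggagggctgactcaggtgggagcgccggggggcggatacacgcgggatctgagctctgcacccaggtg
Pnpla2: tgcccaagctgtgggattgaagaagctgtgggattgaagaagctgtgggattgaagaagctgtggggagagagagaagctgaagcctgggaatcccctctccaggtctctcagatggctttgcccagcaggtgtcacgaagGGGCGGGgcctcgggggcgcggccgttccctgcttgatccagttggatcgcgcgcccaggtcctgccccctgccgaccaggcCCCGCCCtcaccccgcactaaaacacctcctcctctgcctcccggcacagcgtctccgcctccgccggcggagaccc

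The change of the response between hours was fitted by limma for all probes. It is a difference of the ratios on which the set was chosen, so the values of members are a description and their calls test nothing. From the first to the ninth hour the log2 ratio of Plin4 fell by 2.72 (SE 0.27), from the fifth to the ninth by 1.78, while the change from the first to the fifth was -0.94. For Pnpla2 the change was -0.61 from the first to the ninth hour (SE 0.11, 95% interval -0.83 to -0.40), -0.40 from the fifth to the ninth and -0.21 from the first to the fifth. Both genes thus lost most of their ratio by the ninth hour. On its 2 probes Pnpla3 gave 0.21 and -0.32 from the first to the ninth hour, again in opposite directions. For the same step Abhd5 gave 0.066 and 0.16, and the brighter Mgll probe gave -0.048. Among the perilipins, Plin3 gave -0.17 and the brighter Plin5 probe -0.21. For the record, 2 of 15 member probes (Plin4, Pnpla2) were called over that step, where 0.827% of all probes were called (468).

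Between the fifth and the ninth hour 1 was called (Plin4) against 0.083% (47), and from the first to the fifth 0 against 0.0389% (22), with 3 members and 2530 probes at an unadjusted p under 0.05. The call of Pnpla2 was lost without slide 3 and that of Plin4 between the fifth and the ninth hour without slide 1 or slide 3, while Pnpla2 was called there at an intensity of 50 or more or without slide 2. All of these comparisons draw on the same 48 mice, so they are not separate findings.

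Control mice were compared between hours on their own. Their signals are the denominators of the ratios on which the set was chosen, so the values of members are a description here too. Slide 1, scanned on another day, holds 4 arrays of the ninth hour but 2 of the first and 2 of the fifth. The main fit has no term for slide, so slide and hour are partly mixed in comparisons between hours within control or treated mice. In controls Plin4 differed by -0.35 from the first to the ninth hour (SE 0.22) and by -0.25 from the first to the fifth. From the fifth to the ninth it differed by -0.10. Pnpla2 in controls differed by -0.067 from the first to the ninth hour. Neither gene was called between hours in mice without added steroid, and nothing is concluded from that. The lowest unadjusted p of a member in controls belonged to Plin3, with 0.29 from the first to the ninth hour, which was not called. With limma, 0 of 15 member probes were called in controls between any hours, with 1, 1 and 0 at an unadjusted p under 0.05 for the fifth over the first, the ninth over the first and the ninth over the fifth hour. Over all probes 0.0053%, 0.537% and 0.0336% were called (3, 304 and 19), and 4078, 5801 and 3587 had an unadjusted p under 0.05.

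Treated mice showed the fall itself. Their signals are part of the ratios on which the set was chosen. The values of members are therefore again a description, and the calls of members test nothing. In treated mice Plin4 fell by 3.07 from the first to the ninth hour (SE 0.22), by 1.19 up to the fifth and by 1.88 after it. Pnpla2 fell by 0.68 from the first to the ninth hour (SE 0.087), and every treated mouse of the ninth hour lay under every treated mouse of the first. The steps of Pnpla2 were -0.43 from the fifth to the ninth hour and -0.25 before that. For the record, limma called the later step only. That call was lost without scaling between arrays, with processed signals and without slide 1 or slide 3. Plin2 went the other way on 1 of its probes. From the first to the ninth hour A_55_P1999648 rose by 0.29 in treated mice (SE 0.088) and was called, while A_66_P132059 gave 0.027 and was not. Controls showed 0.14 for the first of these Plin2 probes, and the change of its response was 0.15. The call for Plin2 was lost under 5 alternatives, among them processed signals. Besides Plin4, 0 of 14 member probes were called from the first to the fifth hour (1 at an unadjusted p under 0.05), 2 from the first to the ninth (Plin2, Pnpla2) and 1 from the fifth to the ninth (Pnpla2), where 0.546%, 4.02% and 0.661% of all probes were called (309, 2277 and 374). The call of Plin4 from the first to the fifth hour was lost with processed signals and without slide 3.

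**Figure D4:**
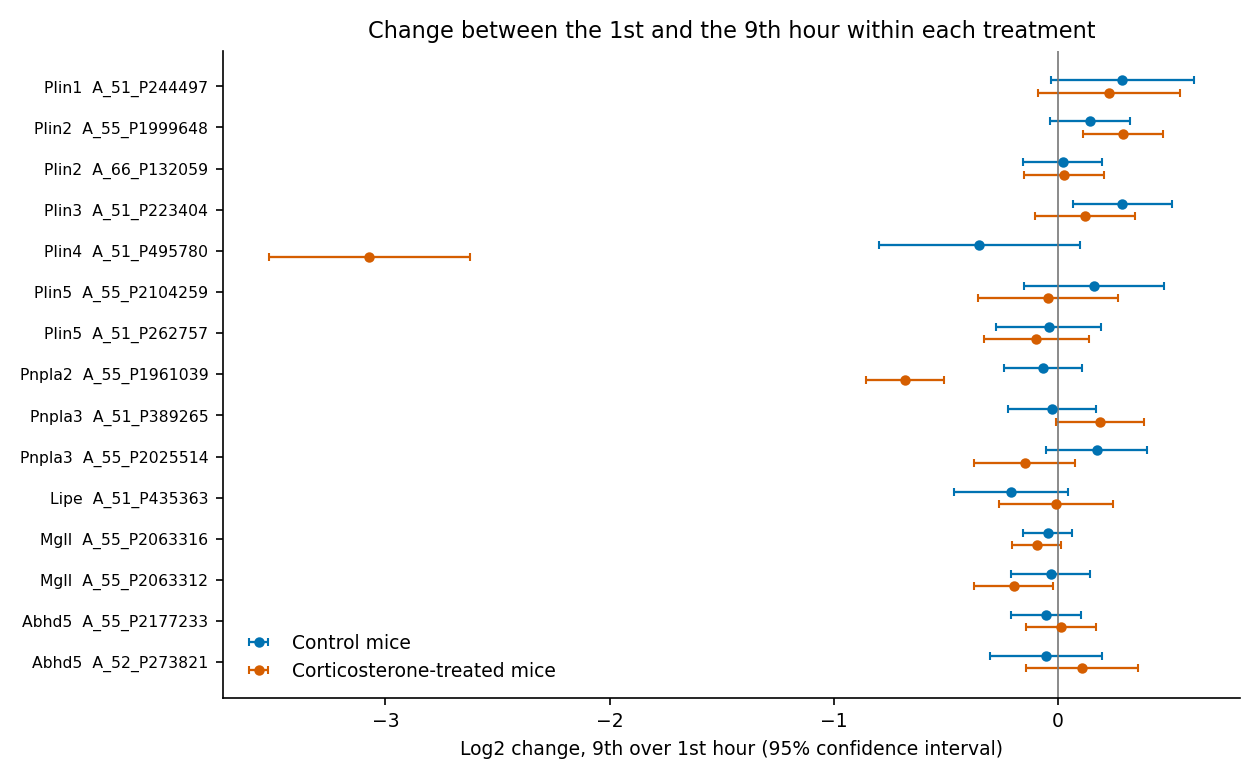
Log2 difference of the ninth over the first hour in control and in treated mice for each member probe, with 95% intervals.

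The genes whose log2 ratios followed Plin4 most closely over the 24 arrays were ranked among 15405 candidates, and each r is followed by the r left after the mean of each hour is taken out. Mfsd2a, a transporter of lysophospholipids at the blood-brain barrier, came first (r 0.959, 0.768), followed by the kinase gene Map3k6 (r 0.945, 0.799). Then came Gjb6, an astrocyte connexin (r 0.942, 0.723), and Fkbp5, the co-chaperone of the glucocorticoid receptor (r 0.942, 0.714). Tekt4 (r 0.932, 0.707) and Tmem52 (r 0.931, 0.724) stood next, and Pnpla2 was seventh (r 0.928, 0.757). Mt1 (r 0.924, 0.650), Atp10a (r 0.923, 0.731) and Fgfr3 (r 0.923, 0.750) completed the 10. In the ninth hour Atp10a (-0.45), Fkbp5 (-0.28), Tmem52 (-0.24), Map3k6 (-0.21), Gjb6 (-0.077), Fgfr3 (-0.054) and Tekt4 (-0.046) had log2 ratios below 0. Of these 10 genes only Mt1 (0.43), Mfsd2a (0.31) and Pnpla2 (0.15), like Plin4, had ratios above 0. Plin1 and Lipe were not among the candidates. Of the other members, Plin5 held place 691, Plin3 1321, Mgll 5310, Abhd5 10395, Pnpla3 10964 and Plin2 15113. Pnpla2 was thus the one member among the 10 nearest genes.

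Gene lists chosen around these members were read at 1 probe per named gene, beside the same counts for all 23787 genes: 10.3% higher and 10.4% lower with corticosterone in the first hour (2457 and 2465), 9.9% and 10.9% in the fifth (2356 and 2598), and 8.37% and 7.21% in the ninth (1991 and 1715). The medians of all genes were -0.0035, -0.0034 and 0.0061. Among 16 regulators of lipolysis 4, 3 and 2 were higher and 2, 0 and 0 lower, with 1 and 0 lower at an unadjusted p under 0.05 in the fifth and the ninth hour. Those higher were 2 to 4, 2 to 3 and 1 to 2 over 11 settings, and those lower 0 to 2, 0 to 1 and 0. Pnpla7, a lysophospholipase related to Pnpla2, rose by 0.56 and 0.45 in the first and the fifth hour. Gpd1, an enzyme of glycerol phosphate, rose by 0.34 in the first hour and Aqp7, a glycerol channel, by 0.21, while the receptor gene Adrb3 fell by 0.36.

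The PPAR receptors drive perilipin and lipase genes in fat and liver. Of 11 such receptors and their targets, 6, 5 and 3 were higher (5 to 6, 2 to 6 and 1 to 4 over 11 settings) and 0 lower by limma (0, 0 and 1 lower at an unadjusted p under 0.05), with medians of 0.15, 0.12 and 0.093. Pdk4 rose by 0.85 in the first hour, and its response changed by -0.89 to the ninth (adjusted p 2.6e-06). The receptor gene Ppara rose by 0.32 and 0.21, and Angptl4 by 0.36, 0.32 and 0.42. The paper counts Pdk4 of this list among its core glucocorticoid-responsive genes, so the list is not separate from that response. A part of PPAR receptors in the response of Plin4 or Pnpla2 was not tested. In known glucocorticoid response genes 10 of 15 were higher and 3 lower in the first hour, 5 and 2 in the fifth, and 0 and 8 in the ninth (0 higher there at an unadjusted p under 0.05 by limma). Cdkn1a rose by 2.06 and Tsc22d3 by 0.93 in the first hour, and Tsc22d3 was lower by 0.58 in the ninth. The list median went from 0.33 to -0.18, and the 8 called lower in the ninth hour were 3 to 8 over 11 settings. Plin4 and Pnpla2 had mean ratios above 0 at that hour.

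Between the first and ninth hour the response of 11 of these 15 glucocorticoid genes was called lower and that of 1 higher, with a median of -0.60, where 0.959% and 0.492% of all named genes were called (228 and 117) and their median was 0.0094. Over 11 settings 10 to 11 of the glucocorticoid genes were called lower and 0 to 2 higher. Cdkn1a changed by -1.89 (adjusted p 1.3e-06). Beside Plin4, Lrg1 changed by -0.81 (adjusted p 0.00214). In the lipid lists only Pdk4 and Ucp2 (-0.65, adjusted p 0.00158) among PPAR receptors and targets, Fabp7 and Acsl3 (-0.38, adjusted p 0.0203) among fatty acid genes and Lpl (0.27, adjusted p 0.0444) among hydrolases were called. Over 11 settings 1 to 2 genes of the PPAR list were called lower, 0 to 1 fatty acid genes higher and 0 to 1 lower, and 0 to 1 hydrolases higher, so the calls of Fabp7, Acsl3 and Lpl depend on the setting. No gene of triglyceride synthesis changed its response by limma (0 up and 1 down with an unadjusted p below 0.05), nor did any of droplet assembly (2 and 0) or of the lipolysis regulators (2 and 2). At an intensity of 50 or more 1 lipolysis regulator was called lower. Most of the glucocorticoid genes were thus called lower over this step, and few genes of the lipid lists.

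**Figure D5:**
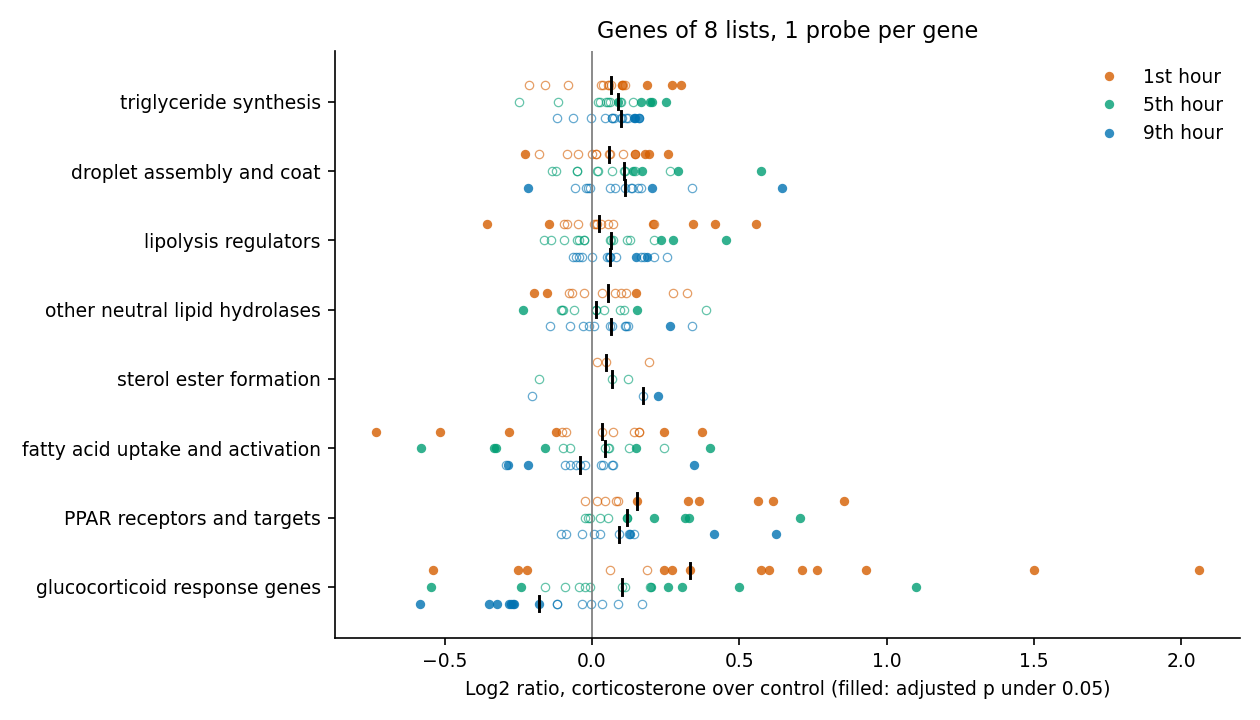
Log2 ratios of the genes of 8 lists at each hour, filled where the adjusted p is under 0.05, with a bar at the list median.

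Cell type markers were read beside these results, and their part in the result was not tested. Adipocyte markers matter because Plin1, Plin4 and Lipe are best known from fat. Of 7 such genes only Lep and Retn reached a mean intensity of 50, and Cfd was well above background in 0 of 48 channels, Adipoq in 2, Plin1 in 15 and Lipe in 39. Their summed intensity, with Lep the brightest probe, was 448 ± 13.1 in control and 454 ± 18.4 in treated mice in the first hour, 441 ± 42.3 in control and 447 ± 41.5 in treated mice in the fifth and 441 ± 38.7 and 455 ± 37.1 in the ninth. With limma 0 of 7 were called in the first hour (0 at an unadjusted p under 0.05), and Cidec alone, named after its values were seen and well above background in 6 of 48 channels, was called in the fifth and the ninth hour. At those hours 0 to 1 adipocyte markers were higher over 11 settings, and 0 to 1 and 0 to 2 lower. Astrocyte markers moved both ways, with Gjb6 up by 0.73, Aldh1l1 by 0.57 and Aqp4 down by 0.76 in the first hour, 3 of 5 called. Their sum, with Slc1a2 the brightest probe, was 23788 ± 845 in control and 29287 ± 2417 in treated mice of the first hour. In control and treated mice it was 24724 and 27452 in the fifth hour and 23927 and 23650.4 in the ninth. The median log2 ratio of these 5 markers was 0.040 in the first hour, -0.061 in the fifth and -0.077 in the ninth. Of 5 neuronal markers 0 were called in the first hour by limma (2 at an unadjusted p under 0.05). In the fifth hour 2 were higher (Snap25 0.22, Rbfox3 0.14) and in the ninth 1 (Rbfox3 0.11). Over 11 settings 0 to 2 were higher in the fifth and 0 to 1 in the ninth, so these calls depend on the setting. Their sum, with Snap25 the brightest probe, was in control and treated mice 122816 and 121641 in the first hour, 118864 and 125236 in the fifth and 121550.0 and 123529 in the ninth. Markers of 5 other cell types are given in the closing section with their summed levels. A sum adds signals of different probes, so it is read only between groups and not as amounts of RNA.

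Of the probes called, 50.5%, 47.7% and 50.1% were higher with corticosterone, but 32.8%, 33.9% and 30.4% with the scanner's processed signals, so counts over all probes depend on scaling. Plin1 and Lipe lie near background, and the probes of Plin2 and Pnpla3 disagree. Protein, droplets and lipase activity were not measured in these arrays.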

How the data were processed

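RNA from the hippocampus of 48 mice was read on 24 two-colour Agilent 8x60K arrays with 62976 spots each, of which 3671 are control spots. The scanner exports deposited by the authors hold raw foreground and background intensity for Cy3 (control mice) and Cy5 (treated mice). The deposited table of the authors holds log2 ratios. It differs from the ratios computed here with an offset of 50 and loess alone by a median of 0.00119, so it is Cy5 over Cy3, with array medians of 0.00239 to 0.00889.

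Intensities were background corrected (normexp), scaled within arrays (loess) and between channels (quantile) with limma 3.58.1 in R 4.3.3, adding an offset of 50 before the tests and none for intensities, fold changes and standard errors. Copies of a probe were averaged, leaving 56605 probes, 34566 of them with a gene name and 23787 named genes. A separate channel fit with 6 groups of 8 mice allowed for the correlation of the channels of a spot (0.279), with statmod 1.5.0 and version 1.17.8 of data.table, and p values were adjusted over all probes by the method of Benjamini and Hochberg. A probe was called at an adjusted p under 0.05. Comparisons were treated over control mice at each hour, the change of that ratio between hours, and the hours within control and within treated mice. The fit was tested on simulated data. Python 3.11.15 with numpy 2.4.6, pandas 2.3.3, scipy 1.17.1 and matplotlib 3.10.9 made the other tables and figures. No filter was applied before the tests. Per array, 60.8% to 67.2% of spots were well above background in Cy3 and 64.0% to 73.5% in Cy5, and 24572 probes had a mean intensity under 50.

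The members and lists were chosen with earlier results of these data known. Genes named are all members with all their probes, list genes called with a mean intensity of 50 or more (at most 12 per list and comparison, by size of change), 3 genes on either side of Plin4, and the 10 genes whose ratios correlate best with Plin4 over 24 arrays. Each gene of a list was read from its probe with the highest mean intensity. Marker genes and Cidec were named after their values were seen, as was the pair of Plin4 and Pnpla2. Alternatives were no background correction, tests without the offset, fold changes with it, median centring in place of loess, no scaling between arrays, scaling of mean intensities only (Aquantile), the scanner's processed signals, filters on intensity or background, log ratios with array as block, slide as block, a separate fit per hour, an intensity trend, each slide left out, values within each slide and the ratios of the authors. Control spots were left out. Nothing was read from the raw images, and no probe sequence was used.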

Additional observations from a re-analysis of the deposited data

Results flagged for a closer look

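In 8 of 135 groups of 8 values for member probes, 1 value stood far from the rest by the Dixon ratio (gap over range), where chance alone flags about 1 group in 20. Probe A_66_P132059 of Plin2 had 1 high treated mouse in the ninth hour (196 with 155 next, gap over range 0.557). Plin3 had 1 low log2 ratio in the fifth hour (-0.68 with -0.020 next, gap over range 0.702). Probe A_51_P389265 of Pnpla3 had 1 high ratio in the first hour (0.21 with -0.19 next, gap over range 0.54) and 1 in the fifth (0.22 with -0.22 next, gap over range 0.565). Lipe had 1 low treated mouse in the first hour (34.3 with 40.8 next, gap over range 0.572). Probe A_55_P2063312 of Mgll had 1 low ratio in the ninth hour (-0.87 with -0.27 next, gap over range 0.537), from a treated mouse with a low intensity (684 with 968 next, gap over range 0.532). Probe A_55_P2177233 of Abhd5 had 1 high ratio in the fifth hour (0.14 with -0.20 next, gap over range 0.715). None of these groups belongs to Plin4 or Pnpla2, and no value was left out.

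The response to corticosterone differed between hours for the genes that follow, as log2 change of the ratio. Plin4 and Pnpla2 belong to a set chosen on these ratios, so their values are a description. Plin4 gave -2.72 from the first to the ninth hour and -1.78 from the fifth to the ninth. From the first to the ninth hour Pnpla2 gave -0.61 and Lrg1 -0.81. Among lipid genes the values were Lpl 0.27, Fabp7 0.64, Acsl3 -0.38, Pdk4 -0.89 and Ucp2 -0.65, of which the calls of Lpl, Fabp7 and Acsl3 depend on the setting, and 1 to 2 of the PPAR list were called lower over 11 settings. Among glucocorticoid response genes they were Cdkn1a -1.89, Mt2 -1.82, Tsc22d3 -1.51, Nfkbia -1.03, Fkbp5 -0.88, Sgk1 -0.83, Ddit4 -0.69, Errfi1 -0.60, Zbtb16 -0.53, Klf9 -0.41, Per1 -0.31 and Nr3c1 0.36. Among cell type markers they were Cldn5 0.60, Ly6c1 -0.43 and Gjb6 -0.80. Over 11 settings 0 to 1 endothelial markers were called higher and 0 to 1 lower, so the calls of Cldn5 and Ly6c1 depend on the setting. The call of Nr3c1 does as well, with 0 to 2 glucocorticoid genes called higher. Explanations for these differences were not tested.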

How the results depend on the processing

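Of the values and counts that answer a comparison, 228 stayed the same under the alternatives, 14 were weaker, 4 stronger and 3 moved. Of the single genes named, 626 stayed the same, 10 were weaker, 7 moved and 2 reversed. Plin4 was higher with corticosterone under every setting, at 3.03 to 3.69 in the first hour, 2.03 to 3.25 in the fifth and 0.23 to 0.94 in the ninth. Where a call was lost or gained the cause was not tested. Leaving out a slide also leaves fewer mice, and the slide and the number of mice cannot be told apart there.

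Filtering to an intensity of 50 or more left 2 members called for the change of the response from the fifth to the ninth hour (Plin4, Pnpla2). Without scaling between arrays Plin4 was called for the change from the first to the fifth hour (count 1), and in treated mice from the fifth to the ninth hour 1 member was left (Pnpla2 lost). With processed signals 0 members were called in treated mice from the first to the fifth hour and 1 from the fifth to the ninth (Pnpla2 lost). A separate fit per hour called 2 members in the ninth hour (Plin4, Pnpla2). Without slide 1, 0 members were called in the ninth hour, 0 for the change from the fifth to the ninth hour and 1 in treated mice over that step (Pnpla2 lost). Without slide 2, 3 were called in the first hour, 2 in the fifth, and 2 for the change from the fifth to the ninth. Without slide 3, 3 were called in the first hour, 2 in the fifth, 1 for the change of the ratio between the first and the ninth (Pnpla2 lost, -0.58), 0 for that from the fifth to the ninth, 0 in treated mice from the first to the fifth and 1 from the fifth to the ninth (Pnpla2 lost). Within slide 1 the fifth hour gave 3.25 for Plin4 and 3.19 for Plin4 minus the mean of the other 6 perilipin probes (Plin1 at background included), and within slide 3 the ninth hour gave 0.23 for Plin4. Pnpla3 reversed within slide 1, with -0.0064 for probe A_55_P2025514 in the first hour and 0.00037 for probe A_51_P389265 in the fifth. The rise of Plin2 in treated mice lost its call with an offset of 0, without scaling between arrays, with processed signals, without slide 1 and without slide 2.

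Log ratios with array as block called 4 members in the first hour (1 Mgll probe lost) and 5 in the fifth (1 Plin2 probe gained), with no other call of a member changed. That fit gives no value between hours within control or within treated mice, so these comparisons have no blocked result. Counts over all probes moved more. The main fit called 9918, 10241 and 7910 probes in the 3 hours, and processed signals (17010, 15335, 14400), while leaving out slide 1, 2 or 3 gave (6598, 6052, 1858), (4549, 7187, 4773), or (5327, 4116, 4962). For the change of the response (the fifth over the first hour, the ninth over the first, the ninth over the fifth) the main counts of 22, 468 and 47 became (44, 630, 95) at an intensity of 50 or more, (34, 568, 74) for probes above background, and (25, 123, 0), (18, 259, 54), or (7, 178, 4) without slide 1, 2 or 3. In control mice 3, 304 and 19 became (2, 18, 4) without scaling between arrays, (0, 17, 3) with processed signals and (1, 5, 0), (3, 237, 4), or (0, 130, 2) without a slide. They were (1, 243, 10) with an offset of 0, (3, 249, 10) with an intensity trend and (3, 311, 11) at an intensity of 50 or more. In treated mice 309, 2277 and 374 became (84, 623, 39) without scaling between arrays, (39, 531, 21) with processed signals and (150, 751, 13), (114, 1254, 139) or (49, 1000, 118) without slide 1, 2 or 3. An offset of 0 gave (200, 1728, 229) in treated mice. Over 11 settings, 9 to 10 glucocorticoid genes were higher in the first hour and 3 to 8 lower in the ninth, 5 to 6, 2 to 6 and 1 to 4 PPAR receptors and targets were higher in the 3 hours, and 1 to 4, 2 to 5 and 0 to 4 genes of triglyceride synthesis. Signal over background limits the probes of Plin1 and Lipe.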

Other observations

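Lipid genes outside the family were read from lists chosen around it, at 1 probe per named gene. Of 15 genes of triglyceride synthesis, 4, 5 and 3 were higher in the 3 hours and 0 lower by limma (0, 1 and 0 lower at an unadjusted p under 0.05), with medians of 0.066, 0.090 and 0.10. Dgat2, which makes triglyceride from diglyceride, rose by 0.27 in the first hour and 0.17 in the fifth. Its partner Dgat1 rose by 0.20 in the fifth and 0.14 in the ninth. Of the phosphatidate phosphatases, Lpin3 rose by 0.30 and Lpin1 by 0.19 in the first hour, Lpin2 by 0.20 in the fifth, and Lpin1 by 0.16 and Lpin2 by 0.14 in the ninth. These shifts were small beside that of Plin4.

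Droplet assembly was mixed, with 4, 4 and 2 of 15 genes higher and 1, 0 and 1 lower in the 3 hours (for the fifth, 2 lower at an unadjusted p under 0.05 by limma). Over 11 settings 2 to 4, 2 to 5 and 0 to 3 were higher. Those lower were 0 to 2, 0 to 1 and 0 to 1. Hsd17b13, a droplet-bound enzyme, rose by 0.26 and 0.29, and Rab18 by 0.18, 0.17 and 0.20. Spast, which tethers droplets to peroxisomes, fell by 0.23 in the first hour.

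Of 12 other hydrolases of neutral lipids, 1, 1 and 1 were higher and 2, 1 and 0 lower (1 lower in the ninth hour at an unadjusted p under 0.05 by limma). These calls depend on the setting, with 0 to 1 higher at each hour and 0 to 2, 0 to 3 and 0 to 1 lower over 11 settings. Dagla, which makes the endocannabinoid that MGLL degrades, rose by 0.15, 0.15 and 0.26, and Nceh1 fell by 0.20 and 0.23. Of the 3 sterol ester genes only Lcat was called, in the ninth hour (0.22). That call depends on the setting, with 0 to 1 of these genes higher there over 11 settings. Fatty acid uptake split in both directions, with 2, 2 and 1 of 13 genes higher and 4, 4 and 2 lower. Over 11 settings 2 to 3, 1 to 2 and 1 were higher and 1 to 5, 2 to 4 and 0 to 2 lower. Slc27a1, a fatty acid transporter, rose by 0.37, 0.40 and 0.35. Fabp7, the fatty acid binding protein of astrocytes, fell by 0.73 and 0.33, and its response changed by 0.64 from the first to the ninth hour (adjusted p 5.8e-04).

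Sums of 5 further sets of cell type markers are given for control and then treated mice. Of 5 endothelial markers 4 were called in the first hour, 3 in the fifth and 2 in the ninth. Those higher were 1 to 2, 0 to 2 and 0 to 1 over 11 settings, and those lower 2, 1 and 1. Ly6c1, the brightest probe, rose by 0.29 in the first hour and Pecam1 by 0.29, while Flt1 fell by 0.61 and Cldn5 by 0.36. Their sums were 15416 and 14130.2 in the first hour, 16202 and 14638 in the fifth and 15463 and 14067 in the ninth. Of 4 mural markers Rgs5 alone was called, at -0.23, -0.27 and -0.25 in the 3 hours, with Acta2 the brightest probe. Its calls depend on the setting. At each hour 0 to 1 of these markers were lower over 11 settings, and in the ninth 0 to 1 were higher. Their sums were 6549 and 6702 in the first hour, 7247 and 7085 in the fifth and 7149.9 and 7086 in the ninth.

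Of 4 microglial markers 2 were called lower in the first hour (P2ry12 -0.49, Cx3cr1 -0.20), 1 in the fifth and 1 in the ninth, with Csf1r the brightest probe. The calls of the first and the ninth hour depend on the setting, with 0 to 2 and 0 to 1 of these markers lower over 11 settings. Their sums were 13362 and 12508 in the first hour, 13933 and 13117 in the fifth and 14438 and 13761 in the ninth. By limma 0 of 6 choroid plexus markers were called at any hour (0, 0 and 0 at an unadjusted p under 0.05), with Kl the brightest probe and sums of 1315 and 1248 in the first hour, 1445 and 1318 in the fifth and 1288 and 1371 in the ninth, the last with an SD of 588 and a highest mouse of 2807. Likewise 0 of 3 blood markers were called by limma (0, 2 and 0 at an unadjusted p under 0.05), with Hba-a1 the brightest probe and sums of 30190.4 and 33052 in the first hour, 28660.2 and 34819 in the fifth and 28707 and 29512 in the ninth. The part of these markers in the results for Plin4 and Pnpla2 was not tested.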
